A study of Mus musculus with 12 samples.

Results

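Macrophages lacking the kinase IRAK2 were compared with wild-type macrophages after 2 and 4 h of MALP-2, early in the response to this lipopeptide. The comparison takes 4 of the 12 expression arrays of the series: IRAK2 KO at 2 h and at 4 h, and wild type at 2 h and at 4 h, each genotype difference being taken within a time. The cells were peritoneal macrophages of mice given thioglycollate, an irritant that draws macrophages into the peritoneum, and the stimulated cells received 100 ng/ml MALP-2. IRAK2 KO and wild-type arrays at 0 h (no MALP-2) and at 8 h are used beside them, as are arrays of IRAK1/IRAK2 KO macrophages, which lack both kinases. The labels give no strain, sex, age or number of mice for any array, and they do not say how the Irak2 allele was made. Each genotype and time is represented by 1 array, so the spread between mice is unknown.

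MALP-2 is a synthetic lipopeptide modelled on a mycoplasma lipoprotein and is sensed by the receptor pair TLR2 and TLR6. The receptors bind the adaptor MyD88, which gathers the kinases IRAK4, IRAK1 and IRAK2 into one complex; IRAK1 and IRAK2 pass the signal to the ubiquitin ligase TRAF6, and from there to NF-kB and the MAP kinases. In macrophages these pathways switch on the transcripts of inflammatory cytokines and chemokines, together with those of inhibitors that end the response, and some of these transcripts are also protected from decay. The comparison asks which transcripts already differ in the first hours when IRAK2 is missing and IRAK1 is still present.

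All values are log2 expression values from Affymetrix arrays, so a difference of 1 is a 2-fold difference. Of 18193 genes, each read from 1 probeset, 10708 had a mean over the 4 arrays at or above 3.83, the median of all values of the 11 arrays other than IRAK1/IRAK2 KO at 0 h. That array stood apart (correlation with the others 0.764 to 0.804 over probesets) and enters no comparison here, while IRAK2 KO and wild type correlated at 0.992 at 2 h and 0.991 at 4 h. Macrophage transcripts were abundant on all 4 arrays: Lyz2, the lysozyme of myeloid cells, read 13.07 and 13.11 in IRAK2 KO and 13.12 and 13.07 in wild type at 2 and 4 h. Csf1r, the receptor for the macrophage growth factor CSF1, read 12.93 and 12.92 in IRAK2 KO and 12.82 and 12.93 in wild type. Of 13 macrophage markers above the floor, Mertk was called lower and Aif1 higher by the test described below, against 2.77% and 3.2% of all genes.

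Irak2 itself was the first gene examined, as a check of the labels. Its only probeset read 5.51 and 4.71 at 2 and 4 h in IRAK2 KO macrophages, against 6.69 and 6.29 in wild type. The KO arrays were thus 2.27-fold lower at 2 h and 2.98-fold lower at 4 h, a mean difference of -1.38 ± 0.13 (SE of the fit), and lay above the floor at both times. Before stimulation the levels were 5.63 in IRAK2 KO and 6.21 in wild type. No source used here says where this probeset lies relative to the deleted segment, so transcript left in the knockout cannot be told apart from signal of an undeleted part. Irak1, the related kinase, read 8.39 and 8.31 in IRAK2 KO and 8.48 and 8.46 in wild type, and the mean differences of its 4 probesets ran from -0.21 to -0.03. Among the 40 measured genes closest to Irak2 on its chromosome, 20 on each side, Tmcc1 was called lower (-0.49) and Zfp637 higher (0.42). No other of these genes was called, where 2.77% of all genes were called lower and 3.2% higher.

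At least 2-fold differences in the same direction at both times were few. At 2 h, 31 genes (0.29% of those measured) were at least 2-fold lower and 28 (0.261%) at least 2-fold higher in IRAK2 KO. At 4 h the counts were 60 (0.56%) lower and 25 (0.233%) higher. At both times 15 genes (0.14%) were lower and 13 (0.121%) higher, and none was at least 2-fold lower at one time and higher at the other. At a 1.5-fold limit the counts at both times were 78 lower (0.728%) and 75 higher (0.7%). Small differences also ran the same way more often than not: 64.4% of genes had the same sign at 2 and 4 h, 26.6% lower and 37.8% higher in IRAK2 KO at both. The genes just inside the 2-fold limit at both times were Fst, Glb1 and Clmp on the low side (-1.06 and -1.27, -1.31 and -1.05, -1.04 and -1.06) and Gpr176, Prss23 and Hyi on the high side. Just outside it were Acpp, Phxr4 and Slc26a4 (-0.98 and -1.30, -1.65 and -0.97, -0.96 and -1.68) and Ifi209, Klc4 and Procr.

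**Figure D1:**
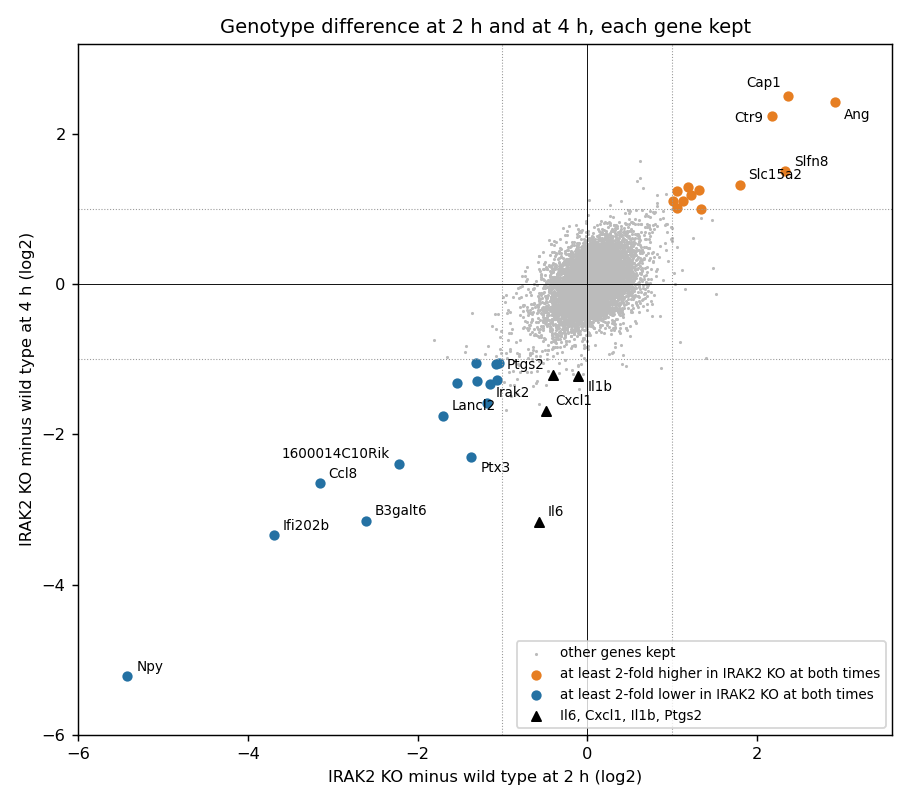
Each point is 1 of 10708 genes, with the IRAK2 KO minus wild-type difference at 2 h on the horizontal axis and at 4 h on the vertical axis, both in log2; dotted lines mark 2-fold. The 15 genes at least 2-fold lower at both times (blue) reach -5.42 at 2 h for Npy, the 13 higher (orange) reach 2.92 for Ang, and Il6, Cxcl1, Il1b and Ptgs2 (triangles) were further from 0 at 4 h than at 2 h.

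A limma model of the 8 IRAK2 KO and wild-type arrays gave each gene 1 genotype difference for 2 and 4 h together, beside one for 0 h and one for 8 h. With Benjamini-Hochberg adjustment over all 10708 genes, 297 genes (2.77%) were called lower and 343 (3.2%) higher in IRAK2 KO at an adjusted p below 0.05. With each array centred on its median the split was 336 lower and 207 higher. All 15 and all 13 genes above were among the calls. The early difference of the fit comes from the same 4 arrays that chose these genes, so their calls add no separate support. The model has 1 residual degree of freedom per gene, which comes from the change of the difference between 2 and 4 h. Beside it stands a prior of 19.3 degrees of freedom, a spread (SD 0.13 log2) estimated over all genes. The p-value and SE thus rest mostly on this shared spread, and not on the spread between mice. A call does not show that a gene's own difference was constant. Il1b, for example, was called lower with differences of -0.10 at 2 h and -1.22 at 4 h. When the IRAK1/IRAK2 KO arrays of 2 and 4 h were added, 9 genes (0.084%) were called lower and 5 (0.0467%) higher, all of them among the 15 and 13 genes. Of the members of the gene lists described further on, only Ccl8, Irak2, Ifi202b and Slfn8 kept their call in that fit, so the calls given for lists describe the fit of 8 arrays alone.

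The gene furthest from wild type was Npy, and 2 chemokine genes were among the 15. Npy, which encodes neuropeptide Y, read 3.89 and 3.68 at 2 and 4 h in IRAK2 KO, against 9.31 and 8.90 in wild type. The KO values lay close to the floor, the one at 4 h below it, and the wild-type values were 42.9-fold and 37.3-fold higher (mean difference -5.32 ± 0.13, SE of the fit, limma adjusted p 3.68e-17). Ccl8, which encodes a chemokine for monocytes and other leukocytes, read 4.37 and 4.70 in IRAK2 KO, against 7.52 and 7.34 in wild type. The wild-type levels were 8.91-fold and 6.27-fold the KO levels. Cxcl14, another chemokine gene, was closer (6.32 and 6.19 in IRAK2 KO, 7.47 and 7.52 in wild type), and its second probeset above the floor differed by -1.15.

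Intracellular and enzyme genes made up most of the remainder of this group. Ifi202b, of the interferon-inducible p200 family of DNA-binding proteins, read 4.68 and 4.59 in IRAK2 KO, against 8.37 and 7.93 in wild type (12.9-fold and 10.2-fold lower). Its probeset is of a type that can match several related transcripts, so relatives in the same family may contribute. B3galt6, a galactosyltransferase that builds the linker between proteoglycan cores and their sugar chains, read 3.93 and 4.97 in IRAK2 KO and 6.54 and 8.12 in wild type, but another of its probesets above the floor differed by only -0.03. The gene 1600014C10Rik read 6.12 at both times in IRAK2 KO, against 8.34 and 8.51 in wild type, and its second probeset gave a mean difference of -2.27. Lancl2, a LanC-like protein gene, read 6.30 and 5.58 in IRAK2 KO and 8.00 and 7.32 in wild type. Glb1, the lysosomal beta-galactosidase, read 5.57 and 5.86 in IRAK2 KO and 6.88 and 6.91 in wild type. That the 2 genotypes kept their order at both times follows from the rule that chose these genes. The differences at 2 and 4 h were of similar size. The centrosomal gene Cep85 and the transcript 6330407A03Rik completed this set, with mean differences of -1.07 and -1.43. The other Cep85 probeset above the floor gave only -0.34. Of the 15 lower genes, 7 had another probeset above the floor, and for 2 of these it was at least 1.5-fold lower at both times.

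**Figure D2:**
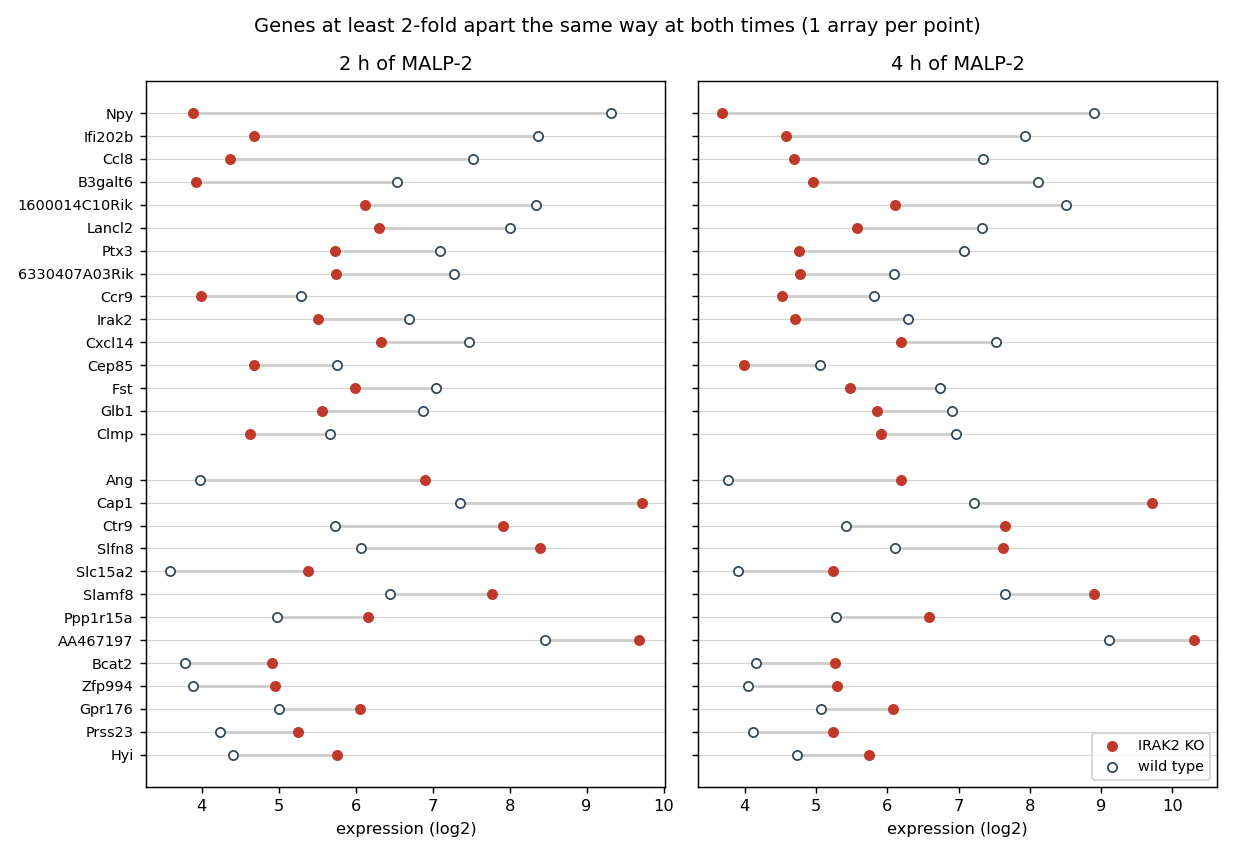
Expression (log2) of the 28 genes with a 2-fold or larger difference of one direction at both times, at 2 h (left) and 4 h (right), with IRAK2 KO as filled and wild type as open circles, 1 array per point. The upper 15 genes were lower and the lower 13 higher in IRAK2 KO; Npy is the widest pair, 3.89 against 9.31 at 2 h.

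Among the 13 genes higher in IRAK2 KO, Cap1, which encodes an actin-regulating protein, had 1 of the larger differences. It read 9.72 and 9.71 at 2 and 4 h in IRAK2 KO, against 7.35 and 7.21 in wild type, 5.16-fold and 5.66-fold higher, and its other probeset above the floor was higher by 1.08. Slfn8, of the Schlafen family of growth-regulatory genes, read 8.40 and 7.62 in IRAK2 KO, against 6.07 and 6.11 in wild type. The difference was 5.02-fold at 2 h and 2.84-fold at 4 h. Of the 7 Schlafen genes above the floor, Slfn4 was also called higher (0.92 at 2 h and 0.55 at 4 h), and the other 5 were not called. The share of all genes called higher was 3.2%. Slc15a2, a peptide transporter, read 5.38 and 5.23 in IRAK2 KO and 3.58 and 3.91 in wild type, 3.47-fold higher at 2 h, where the wild-type value lay below the floor.

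Genes of immune receptors and of the stress response stood in the same group. Slamf8, a SLAM family receptor of macrophages, read 7.77 and 8.90 in IRAK2 KO and 6.45 and 7.65 in wild type. Ppp1r15a, whose product GADD34 directs a phosphatase to the translation factor eIF2alpha, read 6.16 and 6.58 in IRAK2 KO and 4.98 and 5.28 in wild type (2.27-fold and 2.46-fold higher). AA467197, a gene strongly induced by MALP-2 in both genotypes, read 9.68 and 10.30 in IRAK2 KO and 8.46 and 9.12 in wild type. That both KO levels exceeded the wild-type level at the same time follows from the rule that chose these genes. The excess of each gene was nearly constant from 2 to 4 h. Bcat2, a branched-chain aminotransferase, the zinc finger gene Zfp994, the orphan receptor Gpr176 and Hyi, a hydroxypyruvate isomerase, had mean differences of 1.04 to 1.18.

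For 3 of the 13 genes the probesets did not give 1 answer. Ang, which encodes the ribonuclease angiogenin, read 6.90 and 6.19 in IRAK2 KO and 3.98 and 3.77 in wild type by a probeset that can match related angiogenins, while its other 2 probesets above the floor gave 0.70 and 0.99 in place of 2.67. Ctr9, a subunit of the PAF1 transcription elongation complex, read 7.91 and 7.65 in IRAK2 KO and 5.73 and 5.42 in wild type. Its other 3 probesets above the floor gave differences of -0.35 to -0.07, so the direction for Ctr9 rests on that 1 probeset. The serine protease gene Prss23 differed by 1.07 by its most abundant probeset, of a type that can match several transcripts. It differed by 0.28 when such probesets were left out, but that reading comes from a probeset below the floor.

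Most of these differences were already present before MALP-2 was added. All 15 genes lower at 2 and 4 h were also lower at 0 h, as were 52.2% of all genes; 9 of them were at least 2-fold lower, against 33 genes (0.308%) in all. Of the 13 higher genes, 12 were higher at 0 h, as were 47.7% of all genes; 7 of them were at least 2-fold higher, against 15 genes (0.14%) in all. Npy read 3.59 in IRAK2 KO and 9.91 in wild type at 0 h, Ccl8 4.40 and 7.82, Ifi202b 4.21 and 7.64, and Cap1 9.64 and 7.31. At 8 h 12 of the 15 and 7 of the 13 were still at least 2-fold apart in the same direction, where the shares of all genes were 1.26% lower and 0.719% higher. The 0 h, early and 8 h comparisons use different arrays. For a gene that already differed at 0 h, the loss of IRAK2 and any other difference between the mouse lines cannot be told apart.

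**Figure D3:**
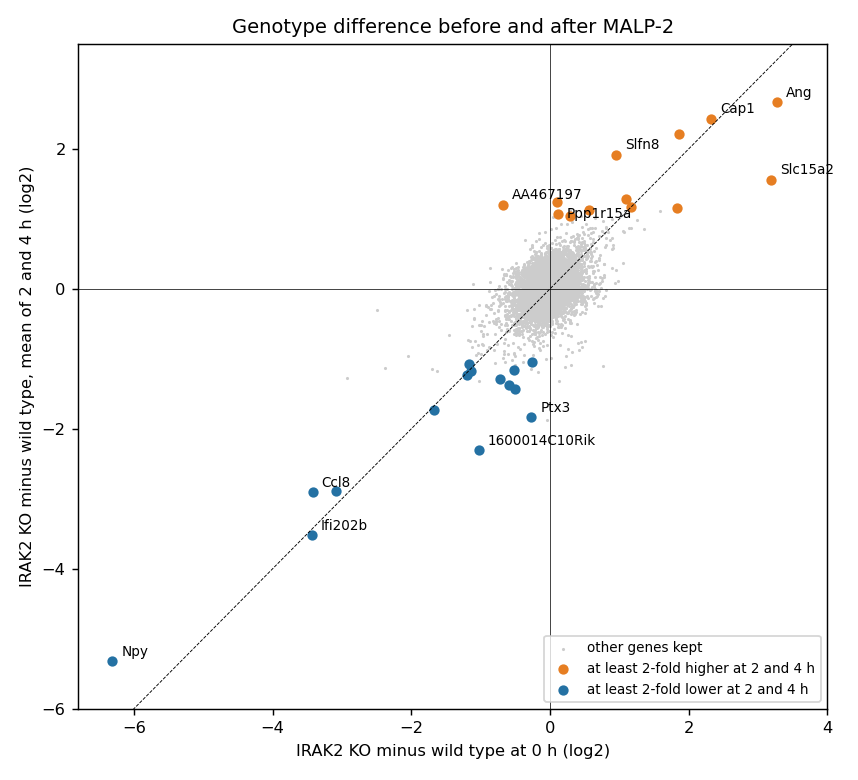
The IRAK2 KO minus wild-type difference at 0 h (horizontal, log2) is set against the mean difference at 2 and 4 h (vertical, log2) for each gene, with the dashed line marking equal differences. Ifi202b and Cap1 lie near the line, Ptx3, 1600014C10Rik and Ang below it, and Npy, AA467197 and Ppp1r15a above it.

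For a smaller group of genes the genotype difference was not the same after stimulation as before it, by limma's contrast of the early difference against the one at 0 h. In this contrast 11 genes (0.103%) were called lower and 8 (0.0747%) higher, and 702 genes had an unadjusted p below 0.05. The 0 h side of the contrast is 1 array per genotype. Again the spread it is weighed against comes mostly from the prior, beside the change between 2 and 4 h. A shift therefore cannot be told apart from a difference between single arrays or mice. Cish, a SOCS family inhibitor of cytokine receptor signalling, was higher by 0.76 in IRAK2 KO at 0 h (4.80 against 4.04). At 2 and 4 h it read 7.68 and 5.24 in IRAK2 KO and 8.55 and 6.58 in wild type, so the difference shifted by -1.86 (limma adjusted p 0.000435). Ptx3, which encodes the long pentraxin, a secreted pattern recognition protein, read 3.57 in IRAK2 KO and 3.84 in wild type at 0 h. At 2 and 4 h it read 5.73 and 4.77 in IRAK2 KO, against 7.09 and 7.08 in wild type. Wild type held its level from 2 to 4 h while the KO level was lower at the later time, and the difference shifted by -1.57 from its value at 0 h (limma adjusted p 0.0215).

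Other genes of this contrast included a growth factor and an anion exchanger. Csf2, which encodes the myeloid growth factor GM-CSF, read 4.14 and 3.50 in IRAK2 KO, against 5.56 and 4.32 in wild type, and 3.67 and 3.45 at 0 h, so its difference was 0.22 at 0 h and -1.12 on average at 2 and 4 h, with the KO value at 4 h below the floor. Slc26a4, the anion exchanger pendrin, read 4.50 and 4.39 in IRAK2 KO and 5.46 and 6.07 in wild type, with levels of 3.85 and 3.72 at 0 h. In the other direction, AA467197 was lower by -0.67 at 0 h and higher by 1.22 and 1.18 at 2 and 4 h, a shift of 1.88 (limma adjusted p 0.000163). Ppp1r15a differed by 0.11 at 0 h and then by 1.19 and 1.30. None of the 19 calls was made when the IRAK1/IRAK2 KO arrays were added to the fit, in which 93 genes had an unadjusted p below 0.05 on the low side and 141 on the high side.

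Genes induced by MALP-2 were shifted downwards as a class in IRAK2 KO, and more so at 4 h. The class was taken from wild-type arrays outside the comparison (8 h minus 0 h, at least 2-fold up) and held 563 genes. Their median difference was -0.05 at 2 h and -0.21 at 4 h, against 0.04 and 0.02 over all genes. Of these genes 52.0% were lower at both times, against 26.6% of all genes. Of the 563, 87 (15.5%) were called lower and 11 (1.95%) higher, against 2.77% and 3.2% of all genes. When the class was taken from genes induced in IRAK2 KO instead (365 genes), the median over both times was -0.07, in place of -0.14. Among the 190 genes induced at least 4-fold the medians were -0.09 and -0.31. Genes repressed at least 2-fold by MALP-2 in wild type (614 genes) had medians of 0.07 and 0.13, and 46.4% of them were higher in IRAK2 KO at both times, against 37.8% of all genes.

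At the level of single induced genes, 30 were at least 1.5-fold lower at both times (5.33%, against 0.728% of all genes) and 6 at least 1.5-fold higher (1.07%, against 0.7%). At 0 h 9 of the 30 were at least 1.5-fold lower (1.46% of all genes were), and at 8 h 29 of them (4.71% of all genes). The class was chosen for wild-type levels low at 0 h and high at 8 h. That choice favours lower differences at 8 h and higher ones at 0 h, so these counts cannot be weighed against the shares of all genes. The list is led by Ptx3, Slc26a4, Ccr9, Ccnd2, Fst, Csf2 and Cish. Fst, whose product follistatin neutralises activin, read 5.99 and 5.48 in IRAK2 KO and 7.05 and 6.75 in wild type. The other Fst probeset above the floor differed by only -0.08, so the lower Fst level rests on 1 probeset. Inhba, which encodes the activin A subunit, read 6.63 and 6.75 in IRAK2 KO and 7.24 and 8.06 in wild type. Ccnd2, which encodes cyclin D2, read 6.34 and 5.997 in IRAK2 KO and 7.24 and 7.48 in wild type, and its 6 other probesets above the floor had mean differences of -0.97 to -0.21. Slc7a2, which imports arginine, read 9.64 and 9.61 in IRAK2 KO and 10.57 and 10.78 in wild type. Clmp, an adhesion molecule gene, and Ccr9, the receptor for the chemokine CCL25, had mean differences of -1.05 and -1.29, but their other probesets above the floor gave -0.19 and -0.24 to -0.11.

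Among genes outside the naming rule, singled out after their values were seen, were Mir155hg, Vcan, F3 and Malt1. Mir155hg, the host transcript of the inflammatory microRNA miR-155, read 6.51 and 4.67 in IRAK2 KO and 7.10 and 5.96 in wild type. F3, tissue factor, which starts blood clotting, read 6.36 and 6.46 in IRAK2 KO and 7.24 and 7.61 in wild type. Malt1, a protease of NF-kB signalling, read 10.75 and 10.24 in IRAK2 KO and 11.39 and 11.15 in wild type. The other 2 Malt1 probesets above the floor gave mean differences of -0.76 and -0.10. The 6 induced genes at least 1.5-fold higher at both times were Slamf8, AA467197, Procr, Cxcl13, Gbp2b and Stfa3. Procr, the endothelial protein C receptor, read 6.60 and 7.44 in IRAK2 KO and 5.68 and 6.23 in wild type. Cxcl13, a chemokine for B cells, read 12.03 and 12.09 in IRAK2 KO and 11.10 and 11.28 in wild type.

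Most inflammatory cytokine genes were lower in IRAK2 KO at both times (12 of 18, against 26.6% of all genes). Of the 18 genes above the floor, 10 were called lower and none higher, against 2.77% and 3.2% of all genes, and the list median was -0.28 at 2 h and -0.65 at 4 h, against 0.04 and 0.02 over all genes. Il12b, which encodes the p40 subunit of interleukins 12 and 23, read 7.11 and 6.61 in IRAK2 KO and 8.12 and 7.23 in wild type. Its second probeset gave -0.81, as did the first (-0.82). Il12a, the p35 subunit, differed by -0.33 at 2 h and -1.18 at 4 h, and Lif, leukemia inhibitory factor, by -0.57 and -1.59. Il1a, Osm and Tnfsf9 were called lower with mean differences of -0.52, -0.50 and -0.43. Ebi3, Il18, Il1rn, Csf1, Il23a and Vegfa were not called, with mean differences between -0.19 and 0.22.

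Several inflammatory transcripts differed at 4 h far more than at 2 h. Il6, interleukin 6, read 5.79 and 4.82 at 2 and 4 h in IRAK2 KO, against 6.36 and 7.98 in wild type. The difference was -0.57 at 2 h and -3.16 at 4 h, the wild-type level being higher and the KO level lower at the later time. Il1b, interleukin 1 beta, read 12.22 and 11.11 in IRAK2 KO and 12.33 and 12.33 in wild type. Cxcl1, a chemokine for neutrophils, read 11.87 and 10.77 in IRAK2 KO and 12.36 and 12.46 in wild type. Ptgs2, the inducible prostaglandin synthase COX-2, read 10.49 and 9.57 in IRAK2 KO and 10.89 and 10.77 in wild type. In all 4 genes the KO level was below wild type at both times, with a wider gap at 4 h (-1.22 for Il1b, -1.69 for Cxcl1 and -1.20 for Ptgs2) than at 2 h (-0.10, -0.49 and -0.40).

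At 8 h the gaps of these genes were wider still: -5.23 for Il6, -3.82 for Il1b, -3.57 for Cxcl1 and -3.52 for Ptgs2. The contrast of the 8 h difference against the early one called 66 genes lower (0.616%) and 26 higher (0.243%), and these 4 were among them. Il12a, Ccl4 and Ccl2 were called in this contrast too, with shifts of -2.48, -2.15 and -1.95. Ccl4, a chemokine for monocytes and T cells, had differed by -0.09 at 2 h and -1.39 at 4 h, and Ccl2 by 0.39 and -0.80. Tnf, tumour necrosis factor, read 11.02 and 10.71 in IRAK2 KO and 10.99 and 11.39 in wild type, and its early difference was not called (-0.32 ± 0.15, limma adjusted p 0.230).

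**Figure D4:**
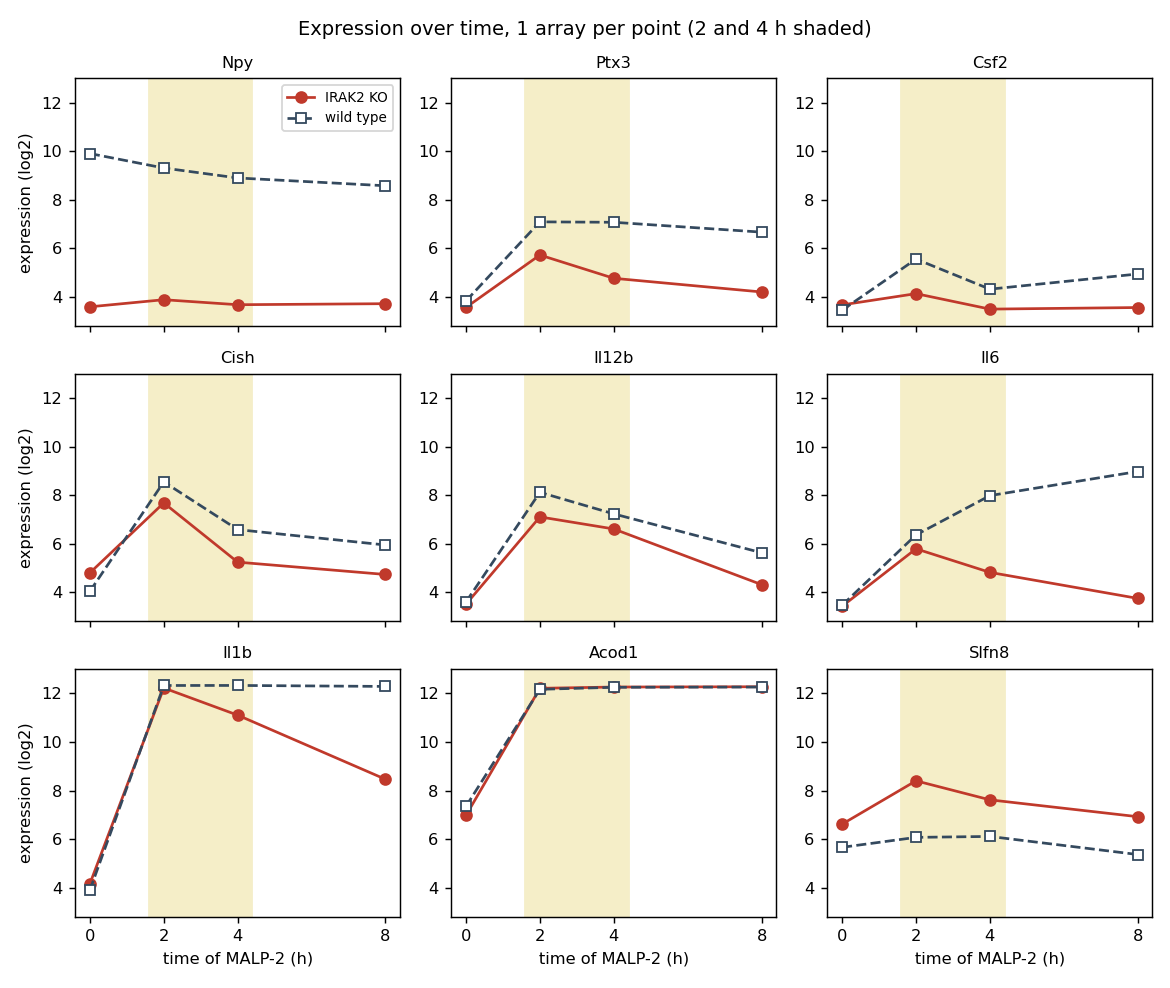
Expression (log2) of 9 genes at 0, 2, 4 and 8 h of MALP-2 in IRAK2 KO (filled circles, solid line) and wild type (open squares, dashed line), 1 array per point, with 2 and 4 h shaded. Npy was apart throughout, Ptx3, Csf2 and Il12b from 2 h on, Il6 and Il1b mainly from 4 h on, Acod1 overlapped at 2, 4 and 8 h, and Slfn8 was higher in IRAK2 KO at every time.

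Other induced genes had close levels in both genotypes. Acod1, which makes the antibacterial metabolite itaconate, read 12.21 and 12.26 in IRAK2 KO and 12.17 and 12.25 in wild type. Nfkbie, an inhibitor of NF-kB, read 10.72 and 9.74 in IRAK2 KO and 10.72 and 9.60 in wild type. Clec4e, the receptor Mincle for mycobacterial glycolipids, read 12.10 and 12.49 in IRAK2 KO and 12.07 and 12.32 in wild type. The KO arrays lay within 0.17 of wild type at both times for each, with mean differences of 0.03, 0.08 and 0.10 (SE 0.13 each), and none was called. The chemokine genes Cxcl2, Cxcl3 and Ccl3 had mean differences of -0.11, -0.13 and -0.18 and were not called.

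The start regions of 2 induced genes that were low in IRAK2 KO at both times and of 2 that were not are shown for comparison. They are RefSeq windows of build GRCm38.p6, 250 bases before to 50 bases after the gene start, on the gene's strand, 5′ to 3′, and capitals mark matches to motifs of NF-kB, AP-1 or C/EBP, the factor families that act on inflammatory promoters. The Ptx3 window (chr3:66219637-66219936, plus strand) held 2 overlapping NF-kB matches and 1 C/EBP match, and that of Csf2 (chr11:54249850-54250149, minus strand) 1 C/EBP match.
Ptx3: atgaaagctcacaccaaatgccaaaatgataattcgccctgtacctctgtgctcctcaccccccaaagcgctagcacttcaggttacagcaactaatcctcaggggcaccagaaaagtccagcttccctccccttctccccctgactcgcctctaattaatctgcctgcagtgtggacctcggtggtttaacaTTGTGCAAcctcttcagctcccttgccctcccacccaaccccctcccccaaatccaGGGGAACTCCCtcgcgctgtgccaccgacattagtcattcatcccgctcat
Csf2: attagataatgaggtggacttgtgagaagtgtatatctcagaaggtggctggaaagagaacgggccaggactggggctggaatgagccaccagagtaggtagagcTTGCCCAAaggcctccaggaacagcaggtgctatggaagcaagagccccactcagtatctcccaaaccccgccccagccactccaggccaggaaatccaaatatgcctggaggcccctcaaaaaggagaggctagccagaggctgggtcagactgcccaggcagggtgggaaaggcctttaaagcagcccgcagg
The Nfkbie window (chr17:45555450-45555749, plus strand) held 1 NF-kB and 1 AP-1 match, and that of Clec4e (chr6:123289822-123290121, minus strand) 1 C/EBP match.
Nfkbie: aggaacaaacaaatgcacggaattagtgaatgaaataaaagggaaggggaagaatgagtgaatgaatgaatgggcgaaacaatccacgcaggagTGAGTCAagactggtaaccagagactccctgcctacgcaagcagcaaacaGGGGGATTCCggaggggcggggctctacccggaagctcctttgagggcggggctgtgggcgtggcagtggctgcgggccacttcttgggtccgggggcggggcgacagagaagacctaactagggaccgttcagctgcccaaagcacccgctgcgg
Clec4e: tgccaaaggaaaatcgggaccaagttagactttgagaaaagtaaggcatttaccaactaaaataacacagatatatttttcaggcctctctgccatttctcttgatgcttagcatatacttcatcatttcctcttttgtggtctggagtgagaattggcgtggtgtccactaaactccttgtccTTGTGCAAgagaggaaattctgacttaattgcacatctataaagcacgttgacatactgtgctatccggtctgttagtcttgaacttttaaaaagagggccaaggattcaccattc

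The motifs were searched on both strands as TGANTCA for AP-1, TTGCNNAA for C/EBP, and the 10-base NF-kB consensus. C/EBP matches stood in the windows shown of Ptx3 and Csf2, low in IRAK2 KO, and in that of Clec4e, which was not low. Over 8737 measured genes with a window, 10.04% held an NF-kB match, 4.99% an AP-1 match and 8.18% a C/EBP match. Among 63 induced genes called lower in IRAK2 KO, the shares were 12.7%, 12.7% and 14.3% in the same order. Among 367 induced genes that were not called they were 16.9%, 7.36% and 11.7%. The window of Il12b, which was also low in IRAK2 KO at both times, held no match to any of these motifs. Neither did that of Acod1, which was close to wild type. A match is a description of the letters only.

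In the signalling pathway Map3k7, Mapk8 and Il1rap were called lower beside Irak2, and Cd36 higher. Of 26 genes of the TLR2 and IRAK pathway above the floor, 4 were called lower and 1 higher, against 2.77% and 3.2% of all genes, with list medians of -0.10 at 2 h and -0.20 at 4 h. The receptor genes Tlr2 (-0.24 and -0.34) and Tlr6 (0.29 and 0.24) and the adaptor gene Myd88 (0.04 and -0.05) were not called. Besides Irak2 the lower ones were Map3k7, which encodes the kinase TAK1 (-0.44 and -0.61), Mapk8, which encodes the kinase JNK1 (-0.42 and -0.49), and Il1rap, the shared chain of the interleukin 1 receptors (-0.38 and -0.47). Cd36, a scavenger receptor that helps to present diacylated lipopeptides, was higher: it read 10.49 and 10.47 in IRAK2 KO and 9.85 and 9.66 in wild type, and was already higher at 0 h (0.57).

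Genes of NF-kB subunits and feedback inhibitors had a lower median at 4 h (-0.29) than at 2 h (-0.06). Of these 22 genes 4 were called lower and none higher, where 2.77% and 3.2% of all genes were. Nfkbiz, an inducible nuclear co-factor of NF-kB needed for Il6 transcription, read 11.69 and 10.19 in IRAK2 KO and 11.85 and 11.39 in wild type. Zc3h12a, the ribonuclease Regnase-1 that degrades cytokine transcripts, differed by -0.18 and -1.14, and Tnfaip3, the ubiquitin-editing protein A20, by -0.29 and -0.65. Cish completed the 4. Of 16 cytokine messenger decay factors, Zc3h12a and Rc3h1 (-0.36 and -0.55) were called lower. Nfkbia, the inhibitor I-kappa-B alpha, was not called (-0.04 and 0.02).

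Immediate-early genes went both ways. Of 23 above the floor 4 were called lower and 2 higher, against 2.77% and 3.2% of all genes. Nr4a3, an orphan nuclear receptor, read 8.09 and 5.23 in IRAK2 KO and 8.73 and 6.58 in wild type. Egr1, a zinc finger factor, read 7.26 and 6.61 in IRAK2 KO and 7.93 and 7.52 in wild type, and Egr3 and Ier2 had mean differences of -0.53 and -0.55. Fos, a component of the AP-1 factor, read 6.83 and 8.47 in IRAK2 KO and 6.22 and 7.66 in wild type. Atf3 was the other higher one (0.38 and 0.50). Noct, the circadian deadenylase-like gene nocturnin, read 9.41 and 7.48 in IRAK2 KO and 10.36 and 8.46 in wild type. Of 21 secondary-response genes 5 were called lower (2.77% of all genes were) and none higher: Il6, Ptx3, Slc7a2 and Il12b, described above, and Hp, haptoglobin (-0.66 and -0.38).

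**Figure D5:**
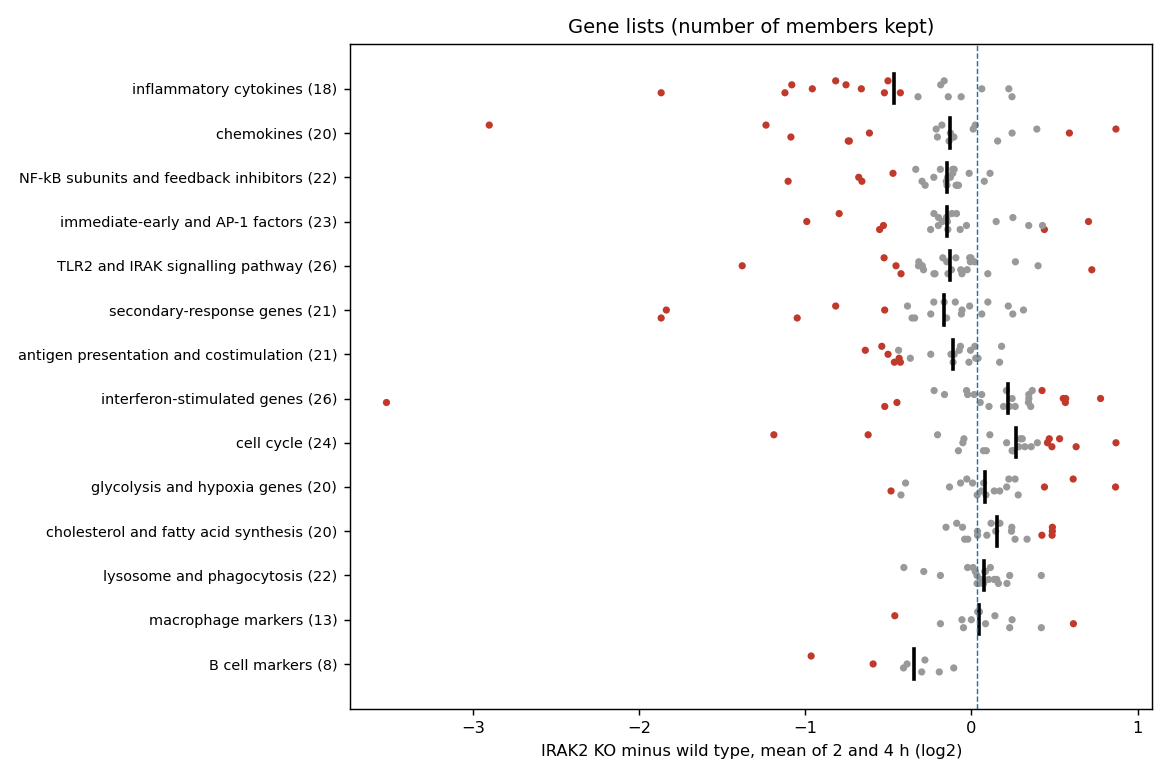
For 14 gene lists, each point is 1 gene's IRAK2 KO minus wild-type difference, as the mean of 2 and 4 h in log2, with the number of measured genes in brackets. Red points were called by limma over all genes, black bars are list medians, and the dashed line is the median of all genes, 0.03; the cytokine list has the lowest median, -0.47, and the cell cycle list the highest, 0.27.

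Interferon-stimulated genes were called in both directions. Of 26 above the floor 5 were called higher and 3 lower, against 3.2% and 2.77% of all genes. At both times 15 were higher and 5 lower, against 37.8% and 26.6% of all genes, and the medians were 0.23 at 2 h and 0.08 at 4 h. Rsad2, the antiviral enzyme viperin, read 7.32 and 8.60 in IRAK2 KO and 6.26 and 8.11 in wild type. Oas1a, an antiviral oligoadenylate synthetase, read 7.18 and 7.45 in IRAK2 KO and 6.58 and 6.91 in wild type. Ifit2, Ifi204 and Oas3 were the other higher ones, and Bst2 and Mx1 (-0.52 and -0.45) were lower beside Ifi202b. Ifi209, of the same family as Ifi202b, read 7.59 and 7.63 in IRAK2 KO and 6.58 and 6.64 in wild type, but its second probeset gave 0.13. The differences of Rsad2, Oas1a and Ifi209 at 0 h were 0.41, 0.58 and 0.90.

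Of 21 genes of antigen presentation and costimulation 6 were called lower and none higher, against 2.77% and 3.2% of all genes, and 4 of the 6 belong to the class II pathway. H2-Ab1, a chain of the class II molecule, read 10.70 and 10.72 in IRAK2 KO and 11.21 and 11.21 in wild type, and Cd74, the invariant chain that escorts class II molecules, 10.07 and 9.996 in IRAK2 KO and 10.65 and 10.70 in wild type. H2-Aa and H2-Eb1 had mean differences of -0.44 and -0.46. All 4 were lower at 0 h by similar or larger amounts, -0.63 to -0.80. The costimulatory genes Cd80 and Tnfsf9 were the other calls (-0.54 and -0.43).

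Markers of B cells, which also carry class II molecules, were lower on the same arrays. Of the 11 on the array, 8 were above the floor and 7 of these were lower in IRAK2 KO at both times, against 26.6% of all genes, with medians of -0.36 at 2 h and -0.27 at 4 h. The summed linear values of the 11 markers were 848 and 1022 in IRAK2 KO and 889 and 1280 in wild type. The defining markers Cd79a, Cd79b and Ms4a1 were near the floor on all 4 arrays, between 3.66 and 4.77, and Pax5 lay below it. Ighm, the immunoglobulin mu chain, was called lower (5.36 and 5.95 in IRAK2 KO, 6.37 and 6.87 in wild type), but by -0.16 and without a call when probesets that match several transcripts were left out. Spib, a transcription factor of lymphoid cells and some myeloid cells, was the other call among the 8, where 2.77% of all genes were called lower. Jchain, a plasma cell transcript, differed by -2.49 at 0 h (3.98 in IRAK2 KO, 6.47 in wild type), by -0.60 at 2 h and by less than 0.01 at 4 h. In such a bulk sample fewer cells of a type and less RNA per cell cannot be told apart, and the part of B cells in the class II difference was not tested.

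Other cell types left small traces. Of 6 neutrophil markers above the floor only Wfdc21, which MALP-2 also induces, was called lower. Acta2 was called higher among 9 mesothelial and stromal markers, and Ccl22 lower among 5 dendritic cell markers. The shares over all genes were 2.77% lower and 3.2% higher. None of 5 markers each of T and NK cells and of eosinophils and mast cells was called, and no erythroid marker was above the floor. The summed linear values of the neutrophil markers were 1768 and 2222 in IRAK2 KO and 1965 and 2269 in wild type. None of 4 sex-linked genes was called.

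More cell cycle genes were called higher than lower in IRAK2 KO. Of 24 above the floor 6 were called higher and 2 lower, against 3.2% and 2.77% of all genes, and 17 were higher at both times, against 37.8% of all genes (medians 0.27 and 0.20). Rrm2, a ribonucleotide reductase subunit that makes the building blocks of DNA, read 9.36 and 9.11 in IRAK2 KO and 8.50 and 8.24 in wild type, and was 0.66 higher at 0 h. Mcm5, a subunit of the replicative helicase, differed by 0.61 and 0.65, but its second probeset gave 0.31, which was not called. Ccnd1, Cdk1, Mcm7 and Rrm1 were higher by 0.46 to 0.53. The exceptions were Ccnd2, described above, and Mki67 (-0.40 and -0.85).

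Of 20 glycolysis and hypoxia genes 3 were called higher and 1 lower, against 3.2% and 2.77% of all genes. Bnip3, a mitophagy receptor induced by low oxygen, read 6.98 and 7.14 in IRAK2 KO and 6.21 and 6.18 in wild type. Ldha and Pdk1 were higher by 0.44 and 0.61, while Hk2 was lower (-0.48). Of 20 genes of cholesterol and fatty acid synthesis 4 (Idi1, Mvd, Mvk and Scd2) were called higher, none lower, and 13 were higher at both times, against 37.8% of all genes. Acsl3, which activates long-chain fatty acids, read 6.08 and 7.59 in IRAK2 KO and 5.18 and 6.62 in wild type. Cpt1a, the gate of mitochondrial fatty acid oxidation, was higher by 0.46 and 0.80. In a list of chemokine, formyl peptide and C5a receptors 3 of 10 were called higher, where 3.2% of all genes were. They were Ccr1 (0.95 and 0.31), Cxcr4 (0.34 and 0.79) and the C5a receptor gene C5ar1 (0.55 and 0.61). The chemokine receptor gene Ccr9, which this list does not hold, was called lower (-1.29), with the probeset limit given above. Of 22 lysosome and phagocytosis genes none was called, and 13 were higher at both times (37.8% of all genes were).

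The remaining genes of the naming rule differed by about 2-fold. Acpp, an acid phosphatase, read 5.46 and 6.35 in IRAK2 KO and 6.44 and 7.64 in wild type, Phxr4 6.49 and 5.41 in IRAK2 KO and 8.15 and 6.38 in wild type. Mbtd1 was lower by its most abundant probeset (-1.01), while its other 2 probesets above the floor gave 0.05 and 0.12. Rps6 was the only 1 of 15 ribosomal protein genes called, where 2.77% of all genes were called lower and 3.2% higher. It was lower by -0.94 by its most abundant probeset (5.86 and 6.26 in IRAK2 KO, 6.67 and 7.34 in wild type). That probeset read far below the median of the 15 genes (10.46 and 10.57 in IRAK2 KO, 10.34 and 10.43 in wild type). The other Rps6 probeset lay below the floor. Fah, the last enzyme of tyrosine breakdown, read 4.95 and 4.78 in IRAK2 KO and 3.62 and 3.90 in wild type, and Klc4, a kinesin light chain, 6.20 and 5.79 in IRAK2 KO and 5.20 and 4.70 in wild type. Cgnl1, a junction protein gene, was higher by 0.89, but its other 2 probesets above the floor gave 0.06 and 0.15.

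The genes of the largest differences did not all look alike in macrophages without both kinases. The IRAK2 KO and IRAK1/IRAK2 KO differences share the wild-type arrays, so their values are only set side by side. The IRAK1/IRAK2 KO arrays of 2 and 4 h also had lower 5' than 3' signal of actin (-4.25 and -4.68) and Gapdh (-5.29 and -5.90). On the 4 arrays compared these values ran from -3.49 to -3.24 and from -3.84 to -3.42. The part of this RNA difference in the values below was not tested. At 2 h Npy differed from wild type by -5.42 in IRAK2 KO and -5.44 in IRAK1/IRAK2 KO, Ccl8 by -3.16 and -2.15, and B3galt6 by -2.61 and -2.56. Ifi202b differed by -3.69 in IRAK2 KO and 1.47 in IRAK1/IRAK2 KO, Glb1 by -1.31 and 1.12, Cep85 by -1.08 and 2.27, and Cxcl14 by -1.14 and 0.34. For these 4 genes the knockouts lay on opposite sides of wild type at 2 h. At 4 h IRAK1/IRAK2 KO differed by 0.97 for Ifi202b, 1.28 for Glb1 and 3.18 for Cep85, again opposite to IRAK2 KO, but by -0.16 for Cxcl14, the same side as IRAK2 KO (-1.33). Among the higher genes, Cap1 differed by 2.37 in IRAK2 KO and 1.90 in IRAK1/IRAK2 KO, whereas Ang differed by 2.92 and 0.03 and Slfn8 by 2.33 and -0.09. At 4 h Cap1 differed by 2.50 in IRAK2 KO and 1.37 in IRAK1/IRAK2 KO, Ang by 2.42 and 0.38, and Slfn8 by 1.51 and -0.61. Among the induced genes at 2 h, Ptx3 differed by -1.37 in IRAK2 KO and -2.55 in IRAK1/IRAK2 KO, Il12b by -1.01 and -3.96, and Il6 by -0.57 and -2.43. At 4 h the differences were -2.31 and -3.06 for Ptx3, -0.62 and -3.64 for Il12b, and -3.16 and -4.38 for Il6.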

How the data were processed

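Expression was measured on 12 Affymetrix arrays, 1 per genotype and time, from total RNA extracted with Trizol and labelled with the NuGEN Ovation system, per the labels' protocols. The deposited table holds log2 values of 45101 probesets; per the submitters' processing notes the authors made them with RMA, which corrects background, gives the arrays equal distributions and summarizes probes, with a version not given in the sources used here. With 1 array per group, the number of arrays limits the precision, and no error between mice can be had.

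Of the probesets 34958 carried 1 gene symbol, 932 several and 9211 none, and 64 were controls; 34741 symbols were updated through gene identifiers of the RefSeq gene table (GRCm38.p6). Each of 18193 genes (9010 with several probesets) was read from the probeset with the highest mean over 11 arrays, and 10708 genes with a 4-array mean of at least 3.83 were kept. Differences are IRAK2 KO minus wild type within a time. limma 3.58.1 in R 4.3.3 was fitted to 8 arrays with time and 3 genotype differences (0 h, 2 and 4 h, 8 h), leaving 1 residual degree of freedom beside a prior of 19.3 (prior SD 0.13 log2); the script was tested on simulated data.

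The genes named are Irak2 and Irak1, the 20 lower and 15 higher genes with the largest smaller difference of the 2 times, up to 20 limma calls per direction by size, list members at least 1.5-fold apart at both times (up to 6 per list and direction), and 11 reference genes of the response. Other list members, neighbours of Irak2 and induced genes that are named were chosen after their values were seen. The members and the 29 gene lists were chosen with earlier results of these data known. Promoter windows and their coordinates come from RefSeq for 8737 kept genes matched by symbol. The alternatives tried are described in the closing section.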

Additional observations from a re-analysis of the deposited data

Results flagged for a closer look

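In limma's contrast of the early genotype difference against that at 0 h (IRAK2 KO minus wild type, Benjamini-Hochberg adjustment over all genes), 9 of the named genes were called. The 0 h and 8 h sides of these contrasts are 1 array per genotype, so the adjusted p-values do not cover the spread between arrays or mice at those times. The difference of Cish shifted by -1.86 (adjusted p 0.000435), that of Ptx3 by -1.57 (adjusted p 0.0215), that of Slc26a4 by -1.45 (adjusted p 0.0215), that of Csf2 by -1.34 (adjusted p 0.0215) and that of 1600014C10Rik by -1.28 (adjusted p 0.0207). Slc15a2, higher in IRAK2 KO at all times, shifted by -1.62 (adjusted p 0.00251), since its difference was 3.19 at 0 h, 1.80 at 2 h and 1.33 at 4 h. The differences of AA467197, Ppp1r15a and Ighm shifted upwards by 1.88, 1.14 and 1.09 (adjusted p 0.000163, 0.0253 and 0.0370); Ighm differed by -2.05 at 0 h and by -1.01 and -0.92 at 2 and 4 h.

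In limma's contrast of the 8 h difference against the early one, 7 named genes were called, all with a lower value at 8 h. The shifts were -3.36 for Il6 (adjusted p 0.00229), -3.16 for Il1b and -2.72 for Ptgs2 (adjusted p 1.04e-05 each), -2.48 for Cxcl1 (adjusted p 0.000207), -1.81 for Ang (adjusted p 0.000257), -1.16 for Ighm (adjusted p 0.0104) and -0.97 for Fst (adjusted p 0.0348). For Il6, Il1b, Ptgs2, Cxcl1 and Fst this widened a gap below wild type, and for Ang it narrowed a gap above wild type (2.92 at 2 h, 0.86 at 8 h). None of these 16 contrasts was called when the IRAK1/IRAK2 KO arrays of 2 and 4 h were added to the fit.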

How the results depend on the processing

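Counts of large differences depended on the fold limit and on how probesets were joined. With the mean of all probesets of a gene, 8 genes were at least 2-fold lower at both times, in place of 15, and 11 higher, in place of 13. At 1.5-fold the counts were 78 and 75. Without a floor, with a floor required of the higher genotype, or with floor and probesets taken from the 8 IRAK2 KO and wild-type arrays (chosen after seeing the data), they remained 15 and 13. The number of limma calls moved most. With a floor raised by 1 log2 there were 449 lower and 547 higher early calls, with an intensity trend in the prior 493 and 534, with arrays centred on their medians 336 and 207, and with the IRAK1/IRAK2 KO arrays of 2 and 4 h in the fit 9 and 5 (469 and 642 at an unadjusted p below 0.05). The early difference against 0 h gave 32 lower and 23 higher calls with the raised floor, 31 and 16 with the trend, 10 and 2 with centring, and 6 lower calls with the mean of probesets. The 8 h difference against the early one gave 162 and 64 calls with the raised floor, 149 and 77 with the trend, 40 lower calls with centring, and 15 higher calls with the mean of probesets or 16 without probesets that match several transcripts. With the IRAK1/IRAK2 KO arrays limma made 0 calls in each direction of both contrasts, with 93 lower and 141 higher genes (early against 0 h) and 230 lower and 103 higher genes (8 h against early) at an unadjusted p below 0.05. Those 2 arrays also had lower 5' than 3' signal of actin (-4.25 and -4.68) than the 4 arrays compared (-3.49 to -3.24); the cause of the lost calls was not tested.

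Of 66 named genes, all kept direction and call with centring. Ctr9 was reversed without probesets that match several transcripts (-0.066, limma adjusted p 0.819), where Ighm (-0.16) and Mcm5 (0.31) lost their calls; with the mean of probesets Mbtd1, Nr4a3, Mcm5, Cgnl1 and Ctr9 lost theirs. The medians of the gene lists were less stable. With centring, 8 list medians moved by more than the SD of the list's medians at 2 and 4 h, and 20 did not. With the mean of probesets 2 moved and 25 did not, while the median of the 4 sex-linked genes changed sign (0.031 in place of -0.13). The median of the induced genes was -0.14 over both times, -0.07 when the class was taken from genes induced in IRAK2 KO, and -0.20 to -0.13 under the other alternatives run. No paired analysis was possible because each genotype and time has 1 array and the labels carry no replicate numbers; differences were taken within times. Leaving out an array would leave a time without 1 of the genotypes and was not run.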

Other observations

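Among the measured genes, 3 were at least 1.5-fold apart in opposite directions at 2 and 4 h. 4933438K21Rik read 5.95 and 5.56 in IRAK2 KO and 4.86 and 6.32 in wild type, Mup10 5.18 and 4.86 in IRAK2 KO and 4.31 and 5.98 in wild type, and Orly 6.85 and 6.09 in IRAK2 KO and 5.45 and 7.07 in wild type. In each, the KO values lay between the wild-type values of 2 and 4 h, and all 3 read between 9.62 and 10.42 on the IRAK1/IRAK2 KO 0 h array, which stood apart from the others.

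Of the early calls against 0 h not described above, Mid1 read 4.42 and 4.57 in IRAK2 KO and 5.53 and 5.12 in wild type, with 4.58 and 4.11 at 0 h, and Trim25, a ubiquitin ligase of antiviral signalling, 10.24 and 9.55 in IRAK2 KO and 11.04 and 10.48 in wild type, with 10.34 and 10.08 at 0 h. Tslp, which encodes a cytokine known from epithelia, read 3.70 in IRAK2 KO and 3.29 in wild type at 0 h, 7.34 in IRAK2 KO and 7.94 in wild type at 2 h, and 5.17 in IRAK2 KO and 6.32 in wild type at 4 h. Mcoln3 and Jchain were called in the other direction, with their widest gap at 0 h (3.27 and 3.98 in IRAK2 KO, 6.19 and 6.47 in wild type).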
